A study of Mus musculus with 12 samples.

Results

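The 80 mouse microRNA names numbered miR-297, miR-466, miR-467 and miR-669 were followed in mouse plasma extracellular vesicles, which are particles enclosed by a membrane and shed by cells. They were taken by name from a table of 1915 mouse microRNA names, as 6 miR-297 names, 31 miR-466 names, 13 miR-467 names and 30 miR-669 names. The plasma came from male C57BL/6J mice 8 days after bile duct ligation (BDL), which ties off the common bile duct, or after a sham operation, with 6 libraries in each group. Age is not stated in the labels used here, which name no transgene or drug for either group. Vesicles were precipitated from plasma with ExoQuick, a polymer reagent, so plasma RNA outside vesicles may be included. The series design states 6 animals in each group, while the labels give the tissue as liver and the site as vesicles and tie no library to an animal.

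These microRNAs belong to a family found in rodents. Most of its hairpins, the folded precursors from which the mature strands are cut, lie in an intron of Sfmbt2, a gene for a Polycomb protein that in extraembryonic tissue is expressed from the paternal copy. The cluster is best known from mouse placenta and embryonic stem cells. Each hairpin can give a 5p and a 3p strand, and bases 2 to 8 of a mature strand, its seed, pair with target mRNAs. The cluster arose by local duplication, so its members are much alike in sequence and a short read can match several of them.

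By GENCODE M21 on GRCm38, 81 hairpins carry these 4 numbers. Of these, 71 lie inside Sfmbt2 (chromosome 2, 10370510 to 10595253), on its strand, within 51.6 kb, and 0 of the 71 overlap an Sfmbt2 exon. The other 10 lie on other chromosomes. By name, 66 members come from hairpins in Sfmbt2 alone, 9 from hairpins elsewhere alone and 3 (miR-466f and its arms) from both, while miR-466a-5p and miR-466a-3p matched no hairpin by name. The hairpin Mir297-1 on chromosome 7 matched no member by name, so the miR-297 names are placed in Sfmbt2 by name alone. miR-669c, the most abundant member here, has its hairpin Mir669c at 10509296 to 10509404 in the Sfmbt2 intron. miR-466i, next in abundance, lies outside the cluster, with its hairpin Mir466i on chromosome 13, 17747473 to 17747593, within Cdk13 and on the opposite strand. The authors' build is not given in the sources used here.

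Mature sequences of 8 members, all from hairpins outside Sfmbt2, were matched in RefSeq (GRCm38.p6). They are shown with the seed in capitals because they make plain the alternating sequence of these members, and miR-467h has the third largest summed count in the family. That count rests mostly on the deepest library, BDL 1, and by mean level miR-467h ranked 6 in the family.
miR-467h (chr9:115381898-115381919, plus strand): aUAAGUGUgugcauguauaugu
miR-466k (chr3:85467396-85467418, plus strand): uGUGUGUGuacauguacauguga
miR-466j (chr10:60960802-60960824, plus strand): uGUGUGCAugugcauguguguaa
miR-669n (chr3:115979905-115979924, plus strand): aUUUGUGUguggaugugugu
miR-466q (chr3:28419988-28420007, plus strand): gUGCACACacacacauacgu
miR-466i-3p (chr13:17747552-17747573, plus strand): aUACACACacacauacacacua
miR-467f (chr11:69635419-69635439, minus strand): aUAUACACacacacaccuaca
miR-467g (chr5:34732872-34732892, minus strand): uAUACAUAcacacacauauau

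All 8 hold a stretch of alternating bases. 4 contain UGUGUG and the other 4 contain ACACAC, whereas 1.86% of 1671 mature mouse sequences outside the family contain either (1.44% UGUGUG, 0.419% ACACAC, on the mature strand). The longest uninterrupted alternation of G and U or of A and C ran from 7 bases in miR-467h and miR-466j to 12 in miR-466q and miR-467f. The 8 seeds all differ. Their total counts over the 12 libraries were 54 for miR-467h, 8 for miR-466k, 7 for miR-466q, 6 for miR-669n, 1 each for miR-466j and miR-467g, and 0 for miR-467f and miR-466i-3p. Outside these 8 the members have no sequence shown here. With 10% of members matched, against the 80% required, a comparison of base composition over the family is void.

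The family was a small part of each library. It gave 1946 counts over the 12 libraries, whose totals ran from 121003 (BDL 4) to 3506914 (BDL 1). Of the 80 names, 66 had at least 1 count, 14 had none, 27 had 10 or more counts and 39 had 1 to 9. Only miR-669c-5p was counted in every library. miR-669c-5p held 34.5% of the family's counts and miR-466i-5p 23.1%. By mean level, miR-669c-5p ranked 198 among all mouse names.

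Many names did not carry separate information. Among the 66 counted names, 29 fell into 13 sets with identical counts in every library, so 50 distinct patterns were left. The sets with most counts were miR-467a-5p with miR-467b-5p (36 counts each), miR-466m-5p with miR-669m-5p (28), miR-669a-5p with miR-669p-5p (26), miR-466b-5p with miR-466o-5p (23) and miR-669a-3p with miR-669o-3p (17). Such names are uncertain as separate measurements, and a sum over the family may hold the same reads more than once, since the handling of reads that match several names is not stated. Of the 13 sets, 8 rest on at least 5 counts for each name. miR-669n also had the same 6 counts as miR-1291, a name outside the family.

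The summed level of the family differed between the groups by less than the spread of the libraries. In CPM (a count divided by the TMM-scaled library size, which allows for composition, times 1e6), the sum ran from 64.0 through a median of 86.5 to 219.6 in BDL and from 54.4 through 100.4 to 134.3 in sham. The means were 113 ± 61.4 CPM after ligation and 99.9 ± 26.6 CPM after sham surgery (SD, n = 6 libraries each). The groups overlapped, and the mean log2 difference of 0.07 was below the spread between libraries (pooled SD 0.59 on the log2 scale). No test was made on sums over members. As a share of all mouse counts the family made up 0.0112 ± 0.00479% on average after ligation and 0.0097 ± 0.00257% after sham surgery (SD, n = 6 libraries each). Plasma vesicle counts are relative, and fewer cells of a type and less RNA per cell cannot be told apart in them.

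BDL 2 and BDL 6 had the highest sums and sham 3 the lowest. The sum in BDL 2 had a 95% exact Poisson interval of 182 to 262 CPM, and that in BDL 4, from 8 counts, one of 27.6 to 126.2 CPM. Without BDL 2 the mean log2 difference was -0.15. BDL 2 stood apart in breadth too. It had counts for 36 members in 623117 total counts, while BDL 6 and sham 6, of similar depth, had 15 and 16.

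**Figure D1:**
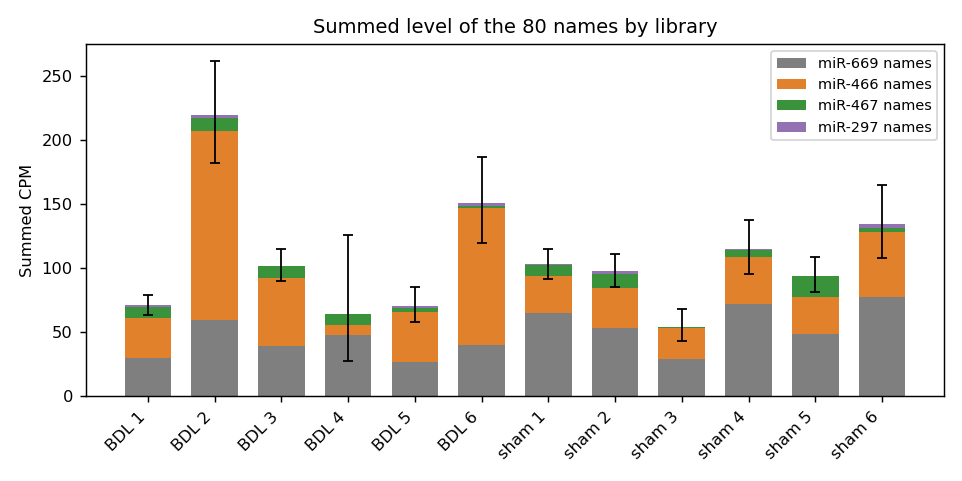
Summed CPM of the 80 names in each of the 12 libraries, with bars coloured by number series and starting at 0, and error bars giving the 95% exact Poisson interval of the sum (counting error only). BDL 2 is highest at 219.6 CPM, the remaining libraries lie between 54.4 and 151 CPM, and the miR-466 part is tallest in BDL 2 and BDL 6.

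The medians of the number series lay on different sides. The miR-466 names summed to 8.0, 46.3 and 148 CPM in BDL (lowest, median and highest) and to 24.4, 29.9 and 50.4 in sham, a mean log2 difference of 0.48. The miR-669 names summed to 26.8, 39.7 and 59.4 CPM in BDL and to 29.3, 59.5 and 77.8 in sham, a mean log2 difference of -0.49. In each of these series the name with most counts differed in the same direction as the sum. Among the miR-466 names, miR-466i-5p had a median of 32.0 CPM in BDL and 12.8 in sham. Among the miR-669 names, miR-669c-5p had 22.9 and 46.8. The series were not compared without these names, so 0.48 and -0.49 are not read as shared by the other names. The miR-466 series was highest in BDL 2 and BDL 6 and lowest in BDL 4. The miR-467 names summed to 1.84, 8.27 and 10.8 CPM in BDL and 0.698, 7.22 and 16.2 in sham. The miR-297 names had 0 to 5 counts in a BDL library and 0 to 6 in a sham library. In each of the 4 series the groups overlapped.

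Of the 80 members, 2 had enough counts to be tested between the groups with the count filter: miR-669c-5p and miR-466i-5p. miR-669c-5p was lower in BDL, and 0 members were higher past the threshold (an adjusted p under 0.05 by edgeR's quasi-likelihood test, with Benjamini-Hochberg adjustment over the 341 names tested). 1 member, miR-466i-5p, was higher at an unadjusted p under 0.05, as were 27.9% of all names. Over all 341 names 24.6% were higher and 18.2% lower, so 1 lower name of 2 tested shows nothing particular to the family. Its 2 tested names had log2 fold changes of opposite sign.

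miR-669c-5p, a 5p strand of the Sfmbt2 cluster, had 12.6, 22.9 and 40.0 CPM in BDL (lowest, median and highest) and 22.3, 46.8 and 65.6 CPM in sham. The underlying counts ran from 5 to 92 in BDL and from 32 to 136 in sham. All 6 BDL libraries were below the sham median and 3 were below every sham library, but the groups overlapped. Sham 3 was the lowest sham library and BDL 4 the highest BDL library, though its 40.0 CPM rests on 5 counts. The mean of miR-669c-5p was 23.8 ± 10.8 CPM after ligation, against 46.6 ± 16.9 CPM after sham surgery (SD, n = 6 libraries each). It fell by 1.06 ± 0.37 on the log2 scale (SE; edgeR adjusted p = 0.0274), about 2.09-fold. The call held when any 1 of the 12 libraries was left out (adjusted p 0.00959 to 0.0440). It ended with scaling by total counts (-0.93, adjusted p = 0.0620) and without the count filter (-1.13, adjusted p = 0.108), which tests 1731 names.

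miR-466i-5p, placed by name alone at the hairpin in Cdk13, had 0, 32.0 and 80.9 CPM in BDL and 10.1, 12.8 and 33.6 CPM in sham. Counts were 85, 29, 113, 0, 34 and 44 in BDL 1 to 6 and 29, 29, 18, 20, 26 and 22 in sham 1 to 6. The 0 was in BDL 4, the shallowest library, where a count of 0 allows up to 24.01 CPM. The other 5 BDL libraries exceeded the sham median, and 3 of them exceeded every sham library. Its mean was 35.8 ± 28.8 CPM after ligation, against 16.7 ± 8.82 CPM after sham surgery (SD, n = 6 libraries each). The log2 fold change was 1.21 ± 0.50 (SE; edgeR adjusted p = 0.0608), short of the threshold. It passed without BDL 4 (1.31, adjusted p = 0.0208), BDL 1 (1.31, adjusted p = 0.0482) or sham 6 (1.38, adjusted p = 0.0413), and with scaling by total counts (1.23, adjusted p = 0.0471).

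Each sample code ends in 24 or 26, a suffix of unstated meaning shared by 3 libraries in each group. For miR-669c-5p the log2 fold change was -0.77 ± 0.41 among the suffix 24 libraries (SE; edgeR adjusted p = 0.169). It was -1.22 ± 0.54 among those of suffix 26 (adjusted p = 0.0835), so neither set passed on its own. For miR-466i-5p the suffix 24 libraries gave 1.23 ± 0.44 (adjusted p = 0.0490), and those of suffix 26 gave 1.27 ± 0.68 (adjusted p = 0.152). With the suffix as a covariate over all 12 libraries both members passed, miR-669c-5p at -0.97 (adjusted p = 0.0253) and miR-466i-5p at 1.23 (adjusted p = 0.0321). Over all names tested, 18.4% were higher and 12.9% lower in suffix 24, and 20.4% were higher and 18.1% lower in suffix 26. The difference between suffixes was not tested.

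**Figure D2:**
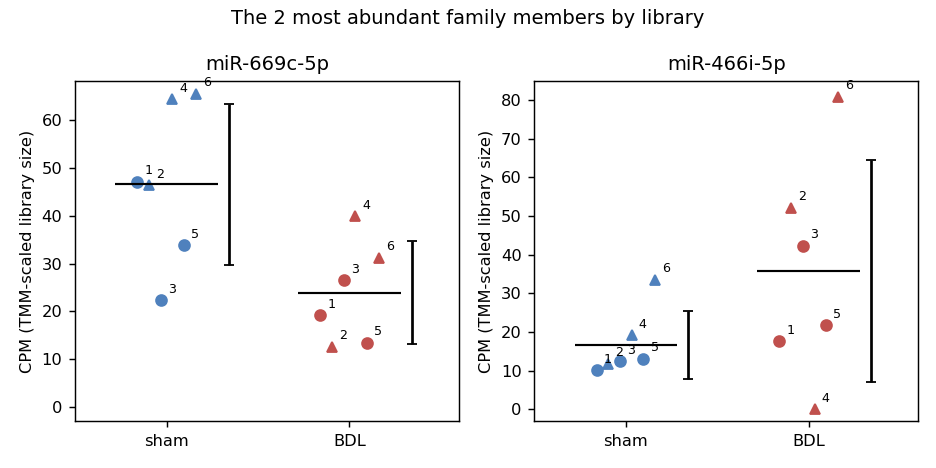
CPM of miR-669c-5p and miR-466i-5p in each library, with circles for code suffix 24, triangles for suffix 26, numbers for the library within its group, a line for the group mean and a bar for ± 1 SD (n = 6 each). All BDL values of miR-669c-5p lie below the sham median of 46.8 CPM, and BDL 4 has 0 CPM of miR-466i-5p while the other BDL libraries range from 17.7 to 80.9.

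**Figure D3:**
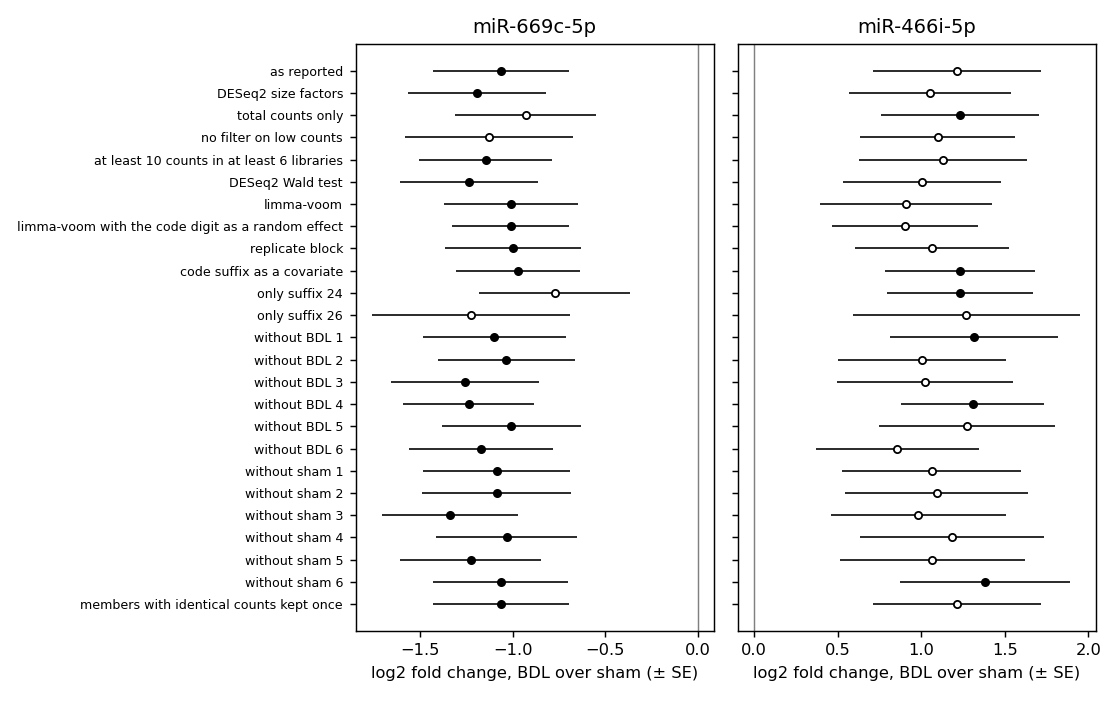
Log2 fold change of BDL over sham for both members under each setting, with bars of ± 1 SE and filled points where the adjusted p was under 0.05. miR-669c-5p ranges from -1.34 to -0.77 and miR-466i-5p from 0.86 to 1.38, and neither crosses 0.

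Set against each other within a library, the leading members need no scaling between libraries. miR-466i-5p made up 48.0, 80.6, 61.4, 0, 61.8 and 72.1% of their joint counts in BDL 1 to 6, and 17.6, 20.3, 36.0, 23.0, 27.96 and 33.8% in sham 1 to 6. In 5 of 6 BDL libraries the share was above that of every sham library. BDL 4 was the exception, with 0 of 5 counts, which allows a share of up to 52.2% (upper end of the 95% exact Clopper-Pearson interval). Averaged over libraries the share was 54.0 ± 28.6% after ligation and 26.4 ± 7.44% after sham surgery (SD, n = 6 libraries each). This ratio was chosen after the values had been seen and was not tested.

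**Figure D4:**
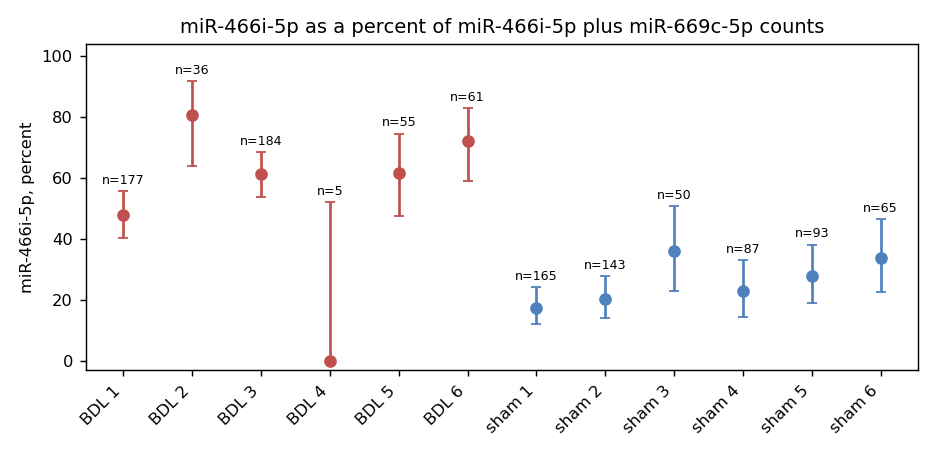
Counts of miR-466i-5p as a percent of miR-466i-5p plus miR-669c-5p in each library, with 95% exact Clopper-Pearson intervals (counting error only) and the joint count above each bar. Sham libraries lie between 17.6 and 36.0%, BDL libraries other than BDL 4 between 48.0 and 80.6%, and BDL 4 has 5 joint counts.

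The remaining 78 members did not pass the count filter. The 5 with most counts were miR-467h, miR-466f-3p, miR-466h-3p and the identical miR-467a-5p and miR-467b-5p. Without the filter, 66 members could be tested among 1731 names, and 1 was higher in BDL (miR-466h-3p) and 0 lower, beside 4.39% higher and 3.18% lower over all names. At an unadjusted p under 0.05 there were 8 higher and 3 lower members in that fit, beside 13.6% higher and 10.2% lower over all 1731 names. The 8 include miR-669a-3p and miR-669o-3p, which have identical counts. By DESeq2, which tested 17 members, miR-466h-3p was higher and miR-669c-5p lower, beside 13.1% higher and 11.5% lower of 716 names tested. None of these shares of members stood above the background of all names.

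miR-466h-3p, from a hairpin in the Sfmbt2 intron, had 9, 14, 3, 0, 7 and 1 counts in BDL 1 to 6 and 2, 0, 1, 0, 0 and 0 in sham 1 to 6. It was present in 5 of 6 BDL and 2 of 6 sham libraries. The 34 BDL and 3 sham counts give a ratio of 11.5 per scaled count (95% interval 3.63 to 58.7, exact binomial, counting error only). Its log2 fold change without the count filter was 3.68 ± 0.94 (edgeR adjusted p = 0.00239), and 2.78 without BDL 2 (adjusted p = 0.0892). The suffix 24 libraries alone gave 2.40 (adjusted p = 0.303), those of suffix 26 alone 5.94 (adjusted p = 0.00703). These fits were chosen after the result without the filter had been seen.

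miR-467h, printed above, had 31, 1, 12, 1, 0 and 0 counts in BDL 1 to 6 and 3, 5, 0, 0, 1 and 0 in sham 1 to 6. Most of its 54 counts thus came from BDL 1 and BDL 3, and its log2 fold change without the filter was 1.99 ± 0.83 (edgeR adjusted p = 0.126). miR-466f-3p, whose hairpins lie both in Sfmbt2 and on chromosome 13, had 8, 9, 9, 0, 5 and 5 counts in BDL 1 to 6 and 5, 4, 0, 0, 0 and 4 in sham 1 to 6, with 1.77 ± 0.77 (adjusted p = 0.144). miR-467b-5p, known to act on lipoprotein lipase in macrophages, had the same counts as miR-467a-5p. These were 3, 1, 5, 0, 1 and 0 in BDL 1 to 6 and 5, 8, 0, 2, 10 and 1 in sham 1 to 6, with -1.24 ± 0.88 (adjusted p = 0.407). miR-467h, miR-466f-3p, miR-467a-5p and miR-467b-5p did not pass the threshold in that fit.

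Members were also grouped by the position of the hairpin that shares their name. Reads were not traced to a locus, so these sums need not be reads from those loci. Names from hairpins in Sfmbt2 alone summed to 40.9, 50.8 and 124.2 CPM in BDL (lowest, median and highest) and 39.1, 82.6 and 92.3 in sham. 5 of 6 BDL libraries were below the sham median and BDL 2 was above every sham library. With miR-669c-5p left out, the other 65 names summed to 16.01, 22.9 and 112 CPM in BDL and 16.8, 29.8 and 44.9 in sham, again with overlap. The 9 names from elsewhere summed to 8.0, 36.9 and 80.9 CPM in BDL and 11.8, 15.0 and 33.6 in sham. With miR-466i-5p left out, their other 8 names had 60 counts in BDL and 17 in sham, of which miR-467h gave 45 and 9. In 4 of 6 BDL libraries these 8 names together exceeded every sham library (at most 4.48 CPM). Among the 4 is BDL 4, where a single count of miR-467h makes 8.0 CPM.

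By strand, 5p names held 75.0% of the family's BDL counts and 90.0% of its sham counts. The 35 names of 3p strands held 15.1% in BDL (141 counts) and 6.93% in sham (70 counts). The 12 names without an arm held 9.94% and 3.07% (93 and 31 counts). These pooled shares weight deep libraries most. They also weight names that have identical counts more than once, and they were not tested.

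The shallowest library, BDL 4, held fewest members and the deepest, BDL 1, held most. Members with at least 1 count numbered 37, 36, 31, 4, 26 and 15 in BDL 1 to 6 and 32, 35, 17, 21, 29 and 16 in sham 1 to 6, with means of 24.8 ± 13.0 and 25 ± 8.07 (SD, n = 6 each). Drawn down to the total of the shallowest library, the number was 14.2 in BDL 2 and 4.0 to 6.92 in the other 11 libraries. The group means at that depth were 7.0 ± 3.63 in BDL and 5.75 ± 1.19 in sham.

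**Figure D5:**
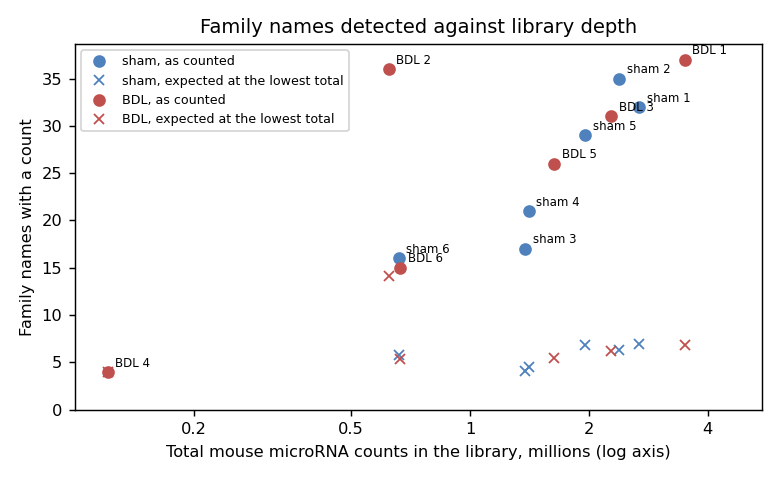
Number of family names with a count against the library's total mouse microRNA count (log axis), as counted (circles) and after drawing down to the lowest total (crosses, the exact mean of random draws without replacement). BDL 2 has 36 names at 623117 counts, where BDL 6 and sham 6 have 15 and 16.

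Microsatellite-like sequence is not limited to the family. Outside it, 29 names in the table have a RefSeq sequence with UGUGUG or ACACAC, of which 5 were tested. 1 was higher (miR-574-3p), 1 lower (miR-206-3p) and 3 did not pass, with a median log2 fold change of -0.35 beside 0.03 over all 341 names. The strands of miR-574 are shown, with the seed in capitals, because one holds UGUGUG and the other ACACAC. miR-574-5p, which did not pass, was added after its values had been seen.
miR-574-5p (chr5:64970328-64970350, plus strand): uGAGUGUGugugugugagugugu
miR-574-3p (chr5:64970364-64970385, plus strand): cACGCUCAugcacacacccaca
miR-574-3p had 352, 1156 and 2092 CPM in BDL (lowest, median and highest) and 205, 273 and 349 CPM in sham, so the groups did not overlap. It rose by 2.07 ± 0.36 on the log2 scale (SE; edgeR adjusted p = 3.61e-04). miR-574-5p, with the longer alternation of 13 bases, had 0.65 ± 0.38 (adjusted p = 0.182). miR-206-3p, of skeletal muscle, fell by 1.94 ± 0.42 (adjusted p = 0.00176). Of 1066 names numbered 1000 or above, 89 were tested, with 25 higher, 6 lower and a median of 0.22. The share past the threshold was 34.8% of these 89 and 40.0% of the 5 tested names with UGUGUG or ACACAC. Over all 341 names it was 42.8% (24.6% higher and 18.2% lower). No other name in the table has a hairpin inside Sfmbt2.

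Markers of possible source cells differed between the groups beside these members. The 3 hepatocyte markers (miR-122-5p, miR-192-5p, miR-194-5p) summed to 74863 to 328189 CPM in BDL and 4019 to 25248 in sham, with 2 of 3 higher and 0 lower. The 3 red cell markers (miR-451a, miR-144-3p, miR-486a-5p) summed to 124209 to 377980 CPM and 356423 to 552975, with 1 of 3 lower. Both listed leukocyte markers (miR-142a-3p, miR-150-5p) were lower (86.4 to 626.3 CPM against 751 to 1540). The 2 names listed for platelets and endothelium (miR-126a-3p, miR-223-3p) summed to 600 to 2609 CPM against 3090 to 8786, with miR-126a-3p lower. miR-223-3p, which is also a leukocyte name, did not pass (-0.58, edgeR adjusted p = 0.362), so leukocyte names were not all lower. Both listed muscle markers were lower too (113 to 568.3 against 531 to 767). Over all names 18.2% were lower. Other names of these cells, added after their values were seen, were mixed. miR-155-5p (-0.10, edgeR adjusted p = 0.873) and miR-133a-3p (-0.34, 0.602) did not pass. miR-142a-5p (-1.90, 5.98e-04) and miR-499-5p (-1.87, 0.00150) were lower. Embryonic stem cell markers of the miR-290 cluster had 33 counts for 5 names over all 12 libraries (0 to 8.0 CPM in BDL, 0.407 to 4.89 in sham), and 0 of 5 were tested. The part of these cell sources in the values of miR-669c-5p and miR-466i-5p was not tested.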

How the data were processed

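The authors deposited whole-number counts per mature microRNA name for 12 libraries, with no normalisation that the values show. Small RNA libraries were made with a NEBNext kit per the labels' protocols, and cutadapt and STAR were used per the submitters' processing notes. The sources used here do not give versions, the authors' build, the annotation or the handling of reads that match several names. No molecular identifiers are described, so intervals cover counting error only.

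Library sizes and tests used the 1915 mouse names, leaving out 67 names of other species. The fit ran over all names with edgeR 4.0.16 in R 4.3.3 (quasi-likelihood F test, TMM scaling, filter on low counts by group, Benjamini-Hochberg adjustment over 341 names, threshold 0.05). Each SE was derived from the log2 fold change and its F statistic. The biological coefficient of variation was 45.5%. The script was checked on data with known changes. Alternatives used DESeq2 1.42.0, limma 3.58.1 (voom), other scaling and filters, the replicate block, the code suffix and each library left out. The first digit of the sample code, of unstated meaning, is shared by 2 libraries of a group, while the design text gives 6 animals a group. No label ties a library to an animal, so p-values measure the spread between libraries. With that digit as a random effect in voom (correlation -0.22), miR-669c-5p had -1.01 ± 0.31 (SE, adjusted p = 0.0130) and miR-466i-5p 0.90 ± 0.44 (adjusted p = 0.0954). Voom without it gave -1.01 ± 0.36 (adjusted p = 0.0326) and 0.91 ± 0.52 (adjusted p = 0.171). The SE was smaller with the negative correlation, so that fit makes no allowance for 2 libraries coming from 1 animal.

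The members, lists and tests were chosen with earlier results of these data known. Named members are those passing the filter and the 5 others with most counts. Hairpins come from GENCODE M21 and sequences from RefSeq, both GRCm38.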

Additional observations from a re-analysis of the deposited data

Results flagged for a closer look

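A single library lay well outside the rest of its group in 3 of 24 sets of 6 values. About 1 set in 20 does so by chance if the sets are independent. These sets are not, since both flags in BDL 2 draw on the same counts, so no excess over chance is read from them. miR-466i-5p in BDL 4, which has the lowest total, had a log2 CPM of 0.21 (prior count of 2), against 4.24 to 6.36 in the other BDL libraries. That value is a count of 0 placed by the prior count. A count of 0 there allows up to 24.01 CPM, which overlaps the 17.7 to 80.9 CPM of the other BDL libraries. In BDL 2 the members expected at the shallowest total numbered 14.2, against 4.0 to 6.80 in the others of its group. Also in BDL 2, the family without miR-669c-5p and miR-466i-5p summed to 154.8 CPM, against 24.01 to 38.6 in the other BDL libraries. Among those names miR-466h-3p (14 counts), miR-466f-3p (9) and, named after its values were seen, miR-669d-5p (6) had most counts there.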

How the results depend on the processing

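Members higher in BDL numbered 1 in place of 0 with total counts only, with no filter on low counts, by DESeq2, with the code suffix as a covariate and in suffix 24 alone, and 0 to 1 with each library left out (1 without BDL 1, BDL 4 or sham 6). Members lower numbered 0 in place of 1 with total counts only, with no filter, in suffix 24 and in suffix 26, and 1 with any library left out. miR-669c-5p kept its direction in all 24 alternatives (adjusted p 0.00591 to 0.169) and passed in 20. miR-466i-5p kept its direction in all 24 (0.0208 to 0.188) and passed in 6. These alternatives are not independent checks. Keeping names with identical counts once repeats the main fit for both members, and 12 others each leave out 1 library. The cause of the differences between settings was not tested. The replicate block gave -0.996 for miR-669c-5p (adjusted p = 0.0438) and 1.07 for miR-466i-5p (adjusted p = 0.0827), with 72 names higher and 61 lower in place of 84 and 62. Same-numbered libraries correlated from -0.09 to 0.31, and 2 of 6 numbers matched best with their own, so the numbers were not used to pair. Over 21 alternatives the log2 difference of the family sum stayed within 1 SD of 0.07. The lowest, -0.21, is a ratio of medians, and the highest, 0.46, leaves out the most abundant member. With a library left out, the mean log2 difference was -0.15 to 0.21. In suffix 26, 54 of 265 names were higher (20.4%) and in suffix 24, 74 of 403 (18.4%), against 84 of 341 in all libraries (24.6%). DESeq2 size factors moved the median of all names from 0.03 to -0.11. The group difference in members detected was -0.17, and 1.17 with at least 3 counts and 1.25 at the lowest total. Of the 66 counted members, 39 had under 10 counts over all libraries.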

Other observations

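Members were also compared by presence alone. Of the 66 counted members, 46 were found in both groups, 12 in BDL libraries only (18.2%) and 8 in sham libraries only (12.1%). Over all 1731 counted mouse names, 9.99% were found in BDL only and 9.71% in sham only. With names of identical counts taken once, 8 of 50 patterns were in BDL only and 6 in sham only. The difference from all names was not tested, and members have low counts. The examples were chosen after their values were seen. miR-669c-3p, the partner strand of miR-669c-5p, had 3 counts, all in BDL 2, while its 5p strand had 7 counts there. miR-669f-3p had 6 counts, 4 in sham 1 and 2 in sham 2. miR-466m-3p had 4 counts, all in sham 2. In the fit without the count filter these had edgeR adjusted p of 0.189, 0.135 and 0.177, so none passed the threshold.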
